A study of Homo sapiens with 15 samples.

Results

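Genes of mitosis, the spindle and the kinetochore were followed across 5 miRNAs in A549 cells. The genes were taken by name from a list of 48 that act in G2 and M phase, CENPE included, and 47 of them had a probe on the array under that name, out of 30484 gene names in all. These 47 genes had 63 probes, and all 63 were well above background often enough to be tested. DLGAP5, the remaining listed gene, stood on the array under its older name DLG7 and is given separately. A549 is a human lung adenocarcinoma line, and the study looked for mRNAs regulated by miR-574-3p, which it reported as induced by X-rays. It also reported induction of miR-766 and, on its miRNA array, of miR-181d. Its text does not name miR-565 or miR-629*. Each array compared A549 cells transfected with a synthetic miRNA precursor (overexpressing, labelled with Cy5) with A549 cells transfected with a locked nucleic acid antagomir against the same miRNA (knocked-down, labelled with Cy3), at 20 nM and 24 h after transfection. Each miRNA had 3 arrays, which makes 15 in all. The miRNAs were miR-574-3p and miR-766, then miR-181d and miR-629*, and last miR-565. No array was hybridised with the dyes exchanged and no untransfected sample was among them, so that a difference between dyes and a difference between precursor and antagomir cannot be told apart within a miRNA. The labels do not say that the 3 arrays of a miRNA came from separate transfections, and p-values therefore measure the spread between these arrays.

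A miRNA guides a silencing complex to mRNAs that pair with its seed, the bases near its 5′ end, which lowers the mRNA or its translation. The mature sequences of 3 of the transfected miRNAs are shown because they are the reagent behind each comparison. Bases 2 to 8 (the seed) are in capitals, and the sequences are from RefSeq (GRCh38.p14), which names miR-181d as miR-181d-5p and miR-629* as miR-629-3p. The 3 seeds differ from each other.
miR-574-3p (chr4:38868092-38868113, plus strand): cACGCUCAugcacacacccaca
miR-629* (chr15:70079387-70079408, minus strand): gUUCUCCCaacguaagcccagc
miR-181d (chr19:13874910-13874932, plus strand): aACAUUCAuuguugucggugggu

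Mitosis is driven by CDK1 with its cyclins and by the kinases PLK1, AURKA and AURKB, which build the spindle and attach chromosomes to it at the kinetochore. CENPE is a kinesin that carries chromosomes to the spindle equator, and the spindle checkpoint delays anaphase until all kinetochores are attached. Most of these genes are transcribed only in late S phase, G2 and M phase, so their mRNA level in a culture follows the share of cells in those phases. In RNA from whole cultures, fewer mitotic cells and less mRNA per cell cannot be told apart.

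The cells carried epithelial markers, and of 4 markers of other cell types 3 were not above background. The brightest probes of KRT8, KRT18 and KRT19 were above background on all 15 arrays in both channels. PTPRC, PECAM1 and COL3A1 were above background on none, and the brightest CD3E probe, with a median signal of 34.9, was above background on all 15. Between 68.1% and 75.5% of probes were well above background in a channel. The standard deviation (SD) of the log2 ratio over all tested probes was 0.29 to 0.53 on 14 arrays and 0.94 on miR-565 replicate 1. This array stands apart, and results are given with and without it.

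The members' mRNA was abundant and, on 14 of the 15 arrays, nearly equal in the overexpressing and the knocked-down cells. On those 14 arrays, the mean log2 ratio of every member lay within 0.3 of zero, from -0.19 for KIF4A to 0.28 for HMMR, and the median of these means was 0.03. Every member's brightest probe was above background in both channels on all 15 arrays. On miR-565 replicate 1, 15 of the 47 members (31.9%) had a log2 ratio below -1, against 14.9% of all genes tested. On the 14 other arrays this occurred for the brightest probe of 1 member on 1 array, KIF14 on miR-181d replicate 1 at -1.001. The dimmest probes of BUB3 and CCNB2 also fell below -1 among these arrays, with a lowest value of -1.37 for each.

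**Figure D1:**
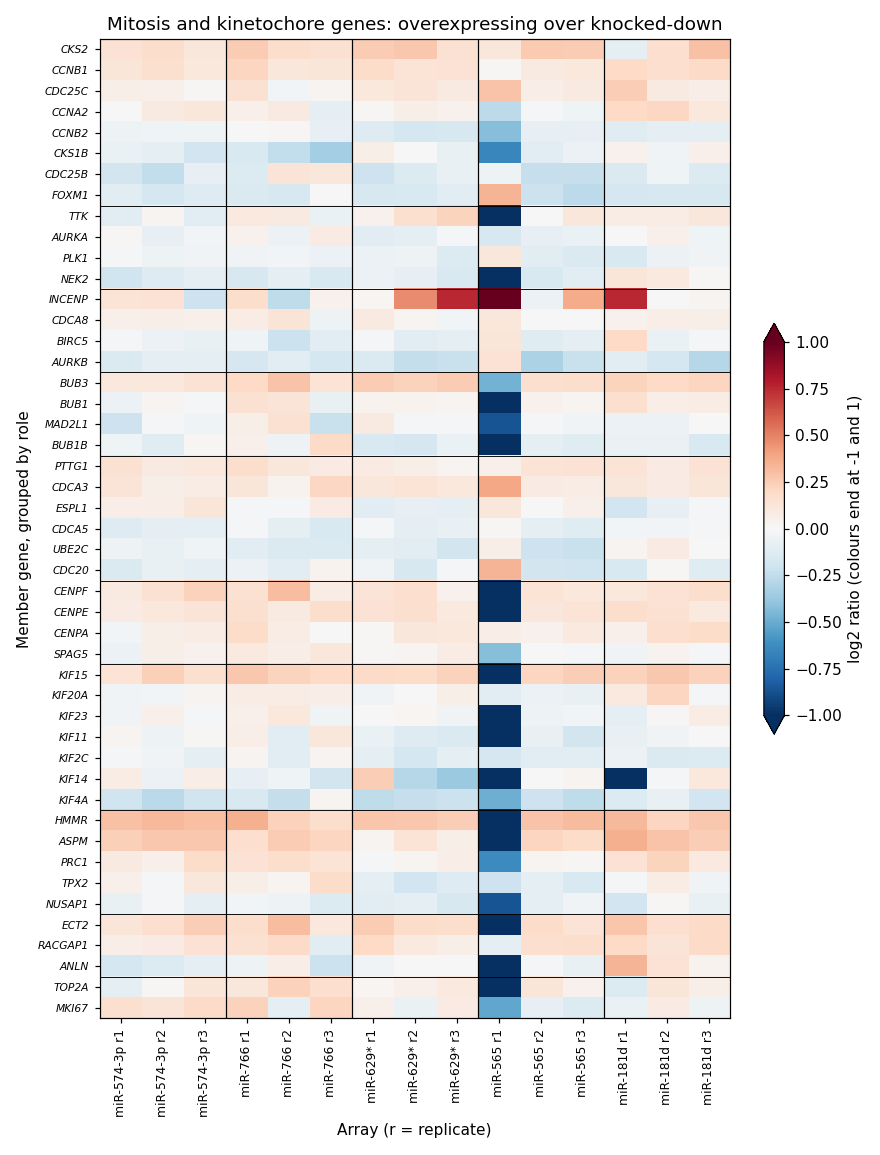
Heat map of the log2 ratio, overexpressing over knocked-down, of 47 member genes (rows, grouped by role) on 15 arrays (columns, r = replicate). Red is higher and blue lower in overexpressing cells, and the colours end at -1 and 1. The column of miR-565 replicate 1 holds nearly all the dark blue cells, with 15 members below -1 (KIF14 on miR-181d replicate 1 is the other), while HMMR, KIF15 and CENPE are pale red in the 14 other columns.

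CENPE was slightly and steadily higher in the overexpressing cells on 14 arrays and much lower on miR-565 replicate 1. Its 60-base probe (chr4:104246788-104246847, hg18, minus strand, 45% GC) was spotted 10 times on each array, which gives a technical error for every array. With miR-574-3p the log2 ratios were 0.08, 0.11 and 0.13 in replicates 1 to 3. With miR-766 they were 0.16, 0.09 and 0.17. With miR-629* they were 0.14, 0.16 and 0.10. All 9 of these values were above zero and overlapped between the miRNAs. With miR-181d they were 0.18, 0.15 and 0.10, and with miR-565 they were -3.31, 0.11 and 0.14. The SD over the spots of an array was 0.014 to 0.055, so that the value of -3.31 was shared by all 10 spots of its array, which ran from -3.40 to -3.23. On that array the overexpressing signal was 288 and the knocked-down signal 2859, whereas on the 14 others the overexpressing signal was 2002 to 3059 and the knocked-down signal 1867 to 2852.

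**Figure D2:**
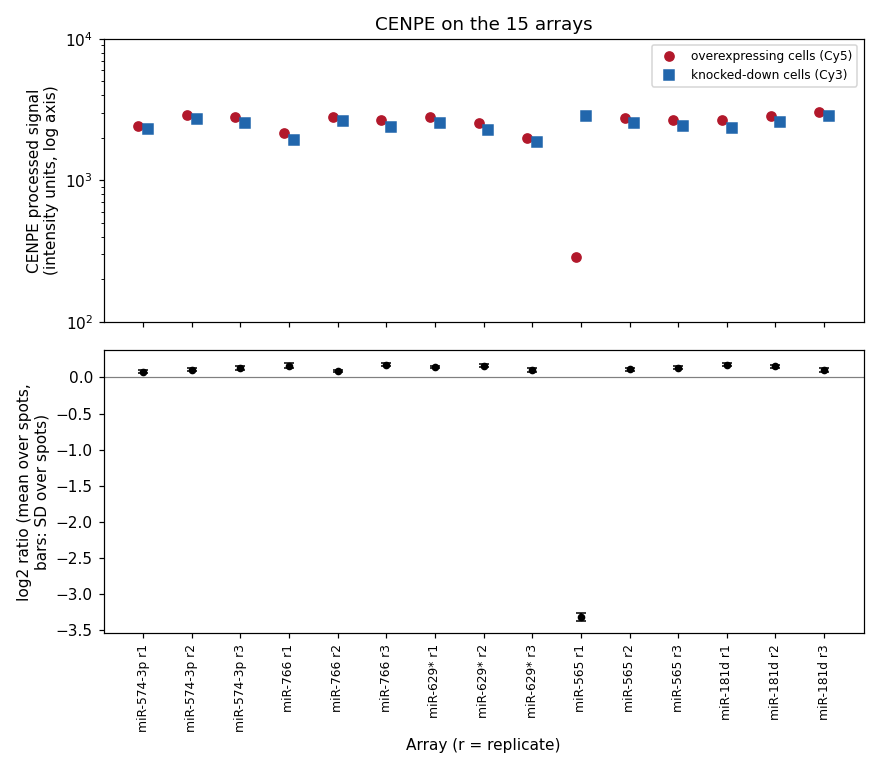
CENPE on the 15 arrays. The upper panel gives the processed signal (intensity units, log axis) of overexpressing (circles) and knocked-down (squares) cells, and the lower panel the log2 ratio with bars for the SD over the spots of an array. On miR-565 replicate 1 the overexpressing signal is 288 and the log2 ratio -3.31, and the 14 other ratios lie between 0.08 and 0.18.

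In the fit of all 15 arrays, the CENPE ratio differed from 1 for no miRNA. The adjusted p was 0.95 for miR-574-3p, 0.92 for miR-766, 0.88 for miR-629*, 0.13 for miR-565 and 0.90 for miR-181d, with a shared standard error (SE) of 0.45 (limma, Benjamini-Hochberg over all probes tested). The 15 arrays share 1 estimate of the spread, and the value of -3.31 entered it for every miRNA. Without miR-565 replicate 1 the SE was 0.025, or 0.030 for miR-565. CENPE was then called higher for all 5 miRNAs, at 0.11 ± 0.02 (SD, n = 3, a ratio of 1.07) for miR-574-3p, 0.14 ± 0.04 (n = 3) for miR-766, 0.14 ± 0.03 (n = 3) for miR-629*, 0.12 ± 0.02 (n = 2) for miR-565 and 0.14 ± 0.04 (n = 3) for miR-181d. The adjusted p were 0.0097, 0.0023, 0.0017, 0.016 and 0.0013 in this order (limma). With the slide as a random block over all 15 arrays the CENPE ratio turned to -0.74 for miR-574-3p and -0.50 for miR-629*, and without miR-565 replicate 1 the same block left all 5 between 0.10 and 0.14.

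ERH, whose protein is known to take part in the splicing of CENPE mRNA, was the gene the study followed for miR-574-3p. The ERH log2 ratios with miR-574-3p were -0.98, -1.18 and -1.14, and the other miRNAs gave -0.24 to 0.33. ERH thus lay lower on all 3 miR-574-3p arrays than on any other (-1.10 ± 0.11 SD, n = 3, adjusted p = 1.2e-05 by limma). Its knocked-down signals there were 27900, 33960 and 32940, against 9086 to 18160 on the 12 other arrays, whereas its overexpressing signals were 14160 to 15000, within the range of the others. On the same 3 arrays CENPE differed from the mean of the other 4 miRNAs by 0.26 ± 0.50 (SE, 95% interval -0.83 to 1.34, adjusted p = 0.95). Without miR-565 replicate 1 this difference was -0.03 ± 0.03 (95% interval -0.09 to 0.03, adjusted p = 0.57), and that of ERH was -1.23 (95% interval -1.38 to -1.08). The CENPE probe does not read splicing and the arrays do not measure protein, so a change in CENPE splicing was not tested.

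The 15 members that were below -1 on miR-565 replicate 1 came from several roles. CENPF, a large kinetochore protein, was lowest at -3.89, and its log2 ratios in replicates 2 and 3 of miR-565 were 0.13 and 0.11. ASPM, which focuses spindle poles, was at -3.57 against 0.22 and 0.19. HMMR, a microtubule-binding protein of the spindle, was at -3.44 against 0.29 and 0.31. Replicate 1 thus fell far outside the other arrays of its own miRNA for each of these genes. CENPE followed at -3.31, then the kinesin KIF14 at -2.71, the checkpoint kinase TTK at -2.61 and the kinesin KIF15 at -2.42. TOP2A, which untangles sister chromatids, was at -2.14, the cytokinesis regulator ECT2 at -2.06 and the scaffold protein of the cleavage furrow ANLN at -1.71. The kinesins KIF11 and KIF23, the kinase NEK2 and the checkpoint genes BUB1B and BUB1 lay between -1.52 and -1.07. NUSAP1 and MAD2L1, both at -0.86, were the nearest above this value.

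Of the 32 other members, 16 lay between -1 and 0 on that array, among them CKS1B at -0.65, PRC1 at -0.64 and MKI67 at -0.52. The remaining 16 were above zero. PLK1 was at 0.11, AURKB at 0.14, CDC20 and FOXM1 both at 0.34, CDCA3 at 0.39 and INCENP at 1.0. In all, 31 members were below zero (42.1% of all genes were) and 16 above. For 29 members the ratio was lower than on each of the 14 other arrays, as it was for 27.7% of all genes. The shift lay in the overexpressing channel. After quantile normalization within the dye, the shift of the 15 members from their mean over the 14 other arrays was between -3.77 and -0.99 log2 units in the overexpressing channel, and between -0.19 and 0.10 in the knocked-down channel. Of all members, 17 had their lowest overexpressing signal of the 15 arrays there, and none its lowest knocked-down signal, against 15% and 0.557% of all genes.

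**Figure D3:**
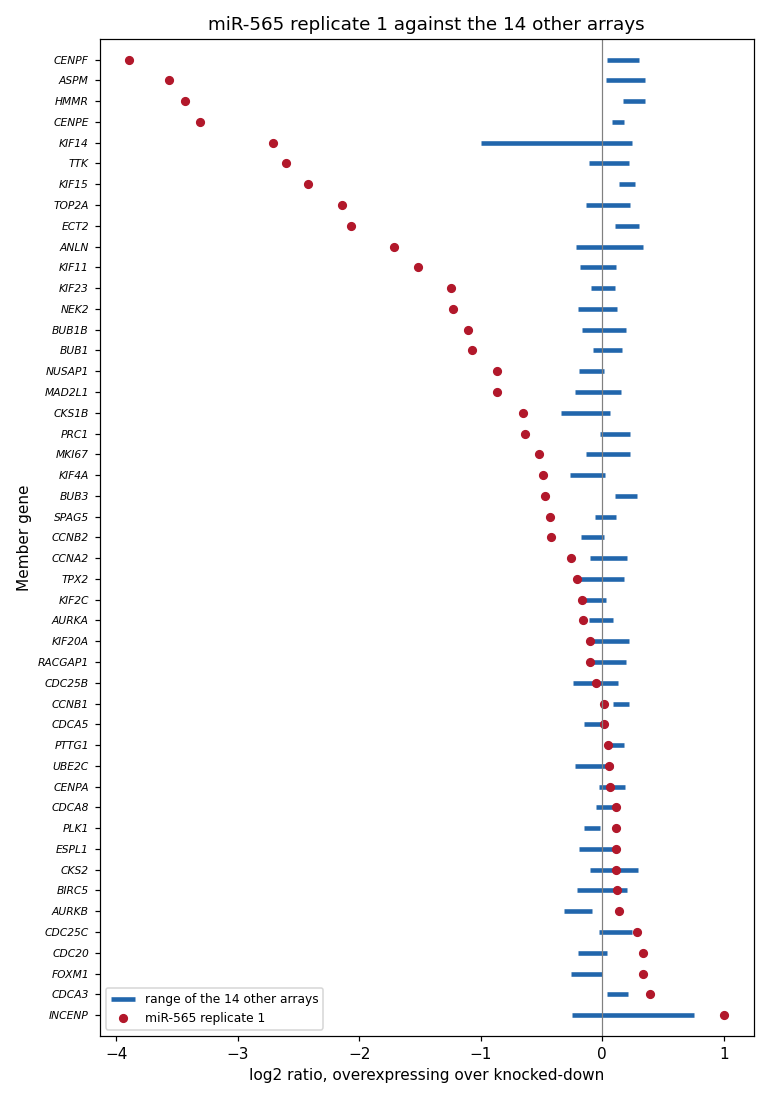
Log2 ratio of each member on miR-565 replicate 1 (points) against its range over the 14 other arrays (bars). Members are ordered by the point, from CENPF at -3.89 to INCENP at 1.0, and the bar of CENPE runs from 0.08 to 0.18.

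Further probes of these genes were low on this array as well. The 3 ECT2 probes gave -2.06, -1.74 and -2.22, the 2 CENPF probes -3.89 and -3.71, the 2 KIF11 probes -1.52 and -1.39 and the 2 NEK2 probes -1.23 and -1.15. The ASPM probes gave -3.57 and -1.85, and the brightest and dimmest of the 4 BUB3 probes -0.47 and -1.51. The probes of the 15 members had a median GC content of 40%, and those of the 32 others 43.3%, as for all genes tested. Over all genes of that array the log2 ratio correlated with the GC content of the probe at r = 0.26 (22999 genes), against -0.27 to 0.04 on the other arrays. Over the 47 members it was 0.14. Genes share their array and are not independent, and the part of GC content or of any other property of the RNA in these low ratios was not tested.

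On all 15 arrays, few members passed the test of the ratio, and their share did not exceed that of all genes. With miR-574-3p, 1 of 47 members was called (5.51% of all genes tested). With miR-766, 1 of 47 was called (2.39% of all genes). With miR-629*, 3 were called (10.4% of all genes). With miR-565, 6 were called (13.9% of all genes). With miR-181d, 1 was called (6.41% of all genes). CCNB1, the cyclin that activates CDK1 for mitosis, was higher for miR-766 (0.15 ± 0.04 SE, adjusted p = 0.047), miR-629* (0.16 ± 0.04, adjusted p = 0.018) and miR-181d (0.19 ± 0.04, adjusted p = 0.011). KIF4A, a kinesin of the central spindle, was lower for miR-574-3p (-0.22 ± 0.06, adjusted p = 0.043), miR-629* (-0.23 ± 0.06, adjusted p = 0.025) and miR-565 (-0.32 ± 0.06, adjusted p = 0.0073). CKS2, a small subunit of CDK complexes, was higher for miR-629* (0.22, adjusted p = 0.035) and miR-565 (0.21, adjusted p = 0.041). These counts were sensitive to single arrays. For miR-565 there were 24 calls without its replicate 2 and 13 without its replicate 3. Leaving out any 1 of the arrays other than those of miR-565 gave 0 to 3 calls for each miRNA. The shares of all genes called with these arrays left out were not counted, so these counts are not a result about the members.

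The other 4 calls were all for miR-565 and leaned on replicate 1 to differing degrees. CCNB2 was lower at -0.20 (adjusted p = 0.036) and gave -0.08 without that array (adjusted p = 0.072). TPX2, which activates AURKA on the spindle, was lower at -0.15 (adjusted p = 0.046) and gave -0.12 (adjusted p = 0.098). CDCA3 was higher at 0.18 (adjusted p = 0.048) and gave 0.08 (adjusted p = 0.15). NEK2 was lower at -0.50 (adjusted p = 0.047) and remained below zero at -0.13 (adjusted p = 0.040).

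The median log2 ratio of the 47 members was close to that of all genes for 4 of the miRNAs. It was 0.01 for miR-574-3p (all genes 0.01), 0.04 for miR-766 (all genes 0.01), 0.02 for miR-629* (all genes 0.03) and 0.04 for miR-181d (all genes 0.02). For miR-565 it was -0.15 against 0.04 for all genes, and -0.03 against 0.02 without replicate 1. The highest means were those of HMMR (0.30), ASPM (0.26) and ECT2 (0.18) for miR-574-3p, HMMR (0.25), KIF15 (0.23) and ASPM (0.21) for miR-766, INCENP (0.42), HMMR (0.26) and BUB3 (0.25) for miR-629*, INCENP (0.44), CKS2 (0.21) and CDCA3 (0.18) for miR-565, and ASPM (0.29), HMMR (0.27) and INCENP (0.26) for miR-181d. The lowest were those of KIF4A (-0.22), CDC25B (-0.17) and NEK2 (-0.14) for miR-574-3p, CKS1B (-0.24), AURKB (-0.15) and UBE2C (-0.13) for miR-766, KIF4A (-0.23), AURKB (-0.20) and CCNB2 (-0.15) for miR-629*, CENPF (-1.22), ASPM (-1.06) and CENPE (-1.02) for miR-565, and KIF14 (-0.30), AURKB (-0.19) and FOXM1 (-0.16) for miR-181d. The same few names thus stood at both ends for several miRNAs.

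Without miR-565 replicate 1, more members and more genes of every kind passed the test. With miR-574-3p, 17 members were called, 11 higher and 6 lower (23.2% of all genes). With miR-766 there were 20, 14 higher and 6 lower (19.4% of all genes), and 11 higher and 8 lower with each array centred on its median. With miR-629* there were 24, 10 higher and 14 lower (35.6% of all genes). With miR-565 there were 18, 9 higher and 9 lower (16.4% of all genes), and 7 higher and 11 lower with that centring or with loess. With miR-181d there were 24, 17 higher and 7 lower (28.1% of all genes). None of these ratios was large: the log2 ratio furthest from zero among the 103 calls was 0.30. In all, 38 members were called for at least 1 miRNA, none of them in both directions, and 9 for none. Of all genes, 54.2% were called for at least 1 miRNA and 1.51% in both directions. All genes include dimmer ones than the members, and shares called were not compared at equal signal.

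**Figure D4:**
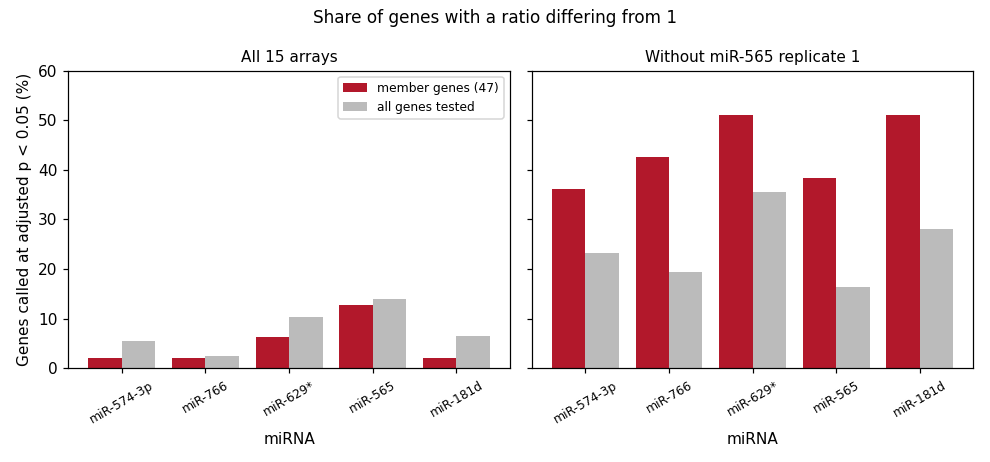
Share of genes whose ratio differed from 1 at an adjusted p below 0.05, for the 47 members (red) and all genes tested (grey), by miRNA. With all 15 arrays the members' bars stand below the grey ones for every miRNA, and without miR-565 replicate 1 they rise to between 17 and 24 of 47 members and stand above them. The grey bars include dimmer genes than the members.

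CENPE, HMMR, KIF15, ECT2, BUB3 and CCNB1 were called higher for all 5 miRNAs, and AURKB and FOXM1 lower. Of all genes, 4.48% were called higher for all 5 and 2.44% lower. These calls rest on the brightest probe of a gene, and the mean log2 ratios of the other BUB3 probes over the 14 arrays were 0.03, -0.02 and -0.29, against 0.19 for the brightest, and those of the other ECT2 probes 0.16 and -0.02, against 0.19. HMMR gave 0.29, 0.32 and 0.30 with miR-574-3p, 0.35, 0.23 and 0.17 with miR-766, 0.28, 0.27 and 0.24 with miR-629*, 0.29 and 0.31 in replicates 2 and 3 of miR-565, and 0.32, 0.22 and 0.27 with miR-181d. The adjusted p of HMMR ran from 4.9e-05 for miR-574-3p to 0.00055 for miR-565. KIF15, a kinesin that helps to hold the spindle poles apart, lay between 0.14 and 0.27 on the 14 arrays. ECT2 lay between 0.10 and 0.30, and BUB3, a checkpoint protein, between 0.11 and 0.29. CCNB1 lay between 0.09 and 0.22. The values of these genes stayed above zero on each of the 14 arrays. For some of them, such as BUB3 with miR-574-3p and with miR-629*, the arrays of 2 miRNAs did not overlap. The share of all genes without such overlap was not counted, so this does not set these genes apart.

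The 2 lower genes were AURKB, the kinase of the chromosomal passenger complex, and FOXM1, a transcription factor of the G2 and M phase genes. AURKB gave -0.14, -0.09 and -0.09 with miR-574-3p, -0.17, -0.11 and -0.17 with miR-766, -0.14, -0.24 and -0.22 with miR-629*, -0.32 and -0.22 in replicates 2 and 3 of miR-565, and -0.11, -0.17 and -0.28 with miR-181d. FOXM1 lay between -0.26 and -0.01. PLK1 and CDCA5, which protects sister chromatid cohesion, were also below zero on each of the 14 arrays. In all, 10 members were above zero on each of the 14 arrays (21.3%, against 10.8% of all genes tested) and 4 below (8.51%, against 6.23%). All members were above background in both channels on every array, which was not required of the genes tested. The shares were not compared at equal signal. Other probes of the higher members were not always above zero: the 14-array mean was -0.13 for the second CENPF probe, -0.07 for the second ASPM probe and 0 for the second CDCA3 probe. After background correction by normexp with loess these 14 genes kept their sign on every array, and with each array centred on its median CENPF and PTTG1 each had 1 array below zero.

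The 5 miRNAs gave similar ratios for the members. Without miR-565 replicate 1, the correlation across the 47 members between the mean ratios of 2 miRNAs was 0.63 to 0.87 in the 10 pairs, against 0.27 to 0.77 across all genes. All genes include dimmer ones than the members, and the correlations were not compared at equal signal. The miRNAs share probes, the orientation of the dyes and the comparison of precursor with antagomir cells. Which of these the shared part comes from cannot be told apart in this design.

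By role, members of 1 complex did not move as a unit. Among the CDK1 regulators, CCNB1, CKS2, CCNA2 and CDC25C had a mean above zero on the 14 arrays, and CCNB2, CDC25B, CKS1B and FOXM1 below. CKS1B was the brightest of them with a median signal of 55880 and CDC25C the dimmest at 829. Among the mitotic kinases only TTK was above zero (0.05), and AURKA (-0.03), PLK1 (-0.07) and NEK2 (-0.08) were below, with PLK1 the brightest at 13880 and TTK the dimmest at 707. The passenger complex held both AURKB (-0.18) and INCENP (0.17). INCENP, at a median signal of 302 the dimmest of all members, ranged over the 14 arrays from -0.25 to 0.75, and KIF14, also dim, from -1.001 to 0.25. BIRC5, the inhibitor of apoptosis that belongs to this complex, was its brightest member at 23110 and lay at -0.06.

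Among the checkpoint genes BUB3 (brightest, 9207) lay at 0.19, while BUB1 (dimmest, 1819) lay at 0.04, MAD2L1 at -0.03 and BUB1B at -0.06. Among the genes of anaphase, PTTG1, the securin that holds separase inactive, was the brightest at 33490 and lay at 0.11, and separase itself, ESPL1, was the dimmest at 2750 and lay at -0.02. CDC20 and UBE2C, both of which act with the anaphase-promoting complex, lay at -0.09 each. The 4 kinetochore members were all above zero: CENPF (brightest, 20100) at 0.14, CENPE at 0.13, CENPA (dimmest, 1745) at 0.08 and SPAG5 at 0.03. The kinesins ran from -0.19 for KIF4A to 0.22 for KIF15, with KIF23 the brightest at 8444 and KIF14 the dimmest at 496.

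In the spindle assembly group HMMR and ASPM led at 0.28 and 0.21, with PRC1 the brightest at 13780 and at 0.10, and NUSAP1 the dimmest at 1234 and at -0.08. DLG7, the older name of DLGAP5, lay between 0.02 and 0.29 on the 14 arrays and at -1.74 on miR-565 replicate 1. In cytokinesis ECT2 was the brightest at 14530 and ANLN the dimmest at 1103. MKI67, the Ki-67 proliferation antigen, was at 0.05 with a median signal of 587, and TOP2A at 0.07 with 7876. Signals of different probes depend on the probe as well as on the mRNA, and the order of brightness is given only as a description of the measurement.

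No member separated 1 miRNA from the others when all arrays were used. By the test of each ratio against the mean of the other 4 miRNAs (limma), 0 of 47 members were called for miR-574-3p (1.27% of all genes), for miR-766 (0.00869%), for miR-629* (0.0522%), for miR-181d (0%) and for miR-565 (0.113%). At an unadjusted p below 0.05 there were 1, 2, 2, 3 and 21 members in this order, against 11.2%, 2.62%, 4.41%, 6.74% and 17.4% of all genes. The 21 members for miR-565 include its replicate 1, on which 14.9% of all genes were below -1. For miR-565 the lowest differences were those of CENPF (-1.37), ASPM (-1.27) and HMMR (-1.22), with an adjusted p of at least 0.30, and the highest those of INCENP (0.27), FOXM1 (0.09) and ESPL1 (0.08). The highest differences of the other miRNAs belonged to genes that were very low on miR-565 replicate 1, which stood among the arrays they were compared with. They were KIF14 (0.39), ASPM (0.38) and CENPF (0.35) for miR-574-3p, CENPF (0.38), ASPM (0.32) and TOP2A (0.31) for miR-766, TTK (0.33), CENPF (0.30) and HMMR (0.29) for miR-629*, and ASPM (0.42), ANLN (0.38) and CENPF (0.34) for miR-181d. The lowest were INCENP (-0.25), CDC25B (-0.07) and CDC25C (-0.07) for miR-574-3p, INCENP (-0.30), CKS1B (-0.15) and BIRC5 (-0.09) for miR-766, TPX2 (-0.14), ESPL1 (-0.11) and UBE2C (-0.06) for miR-629*, and ESPL1 (-0.11), CKS2 (-0.08) and FOXM1 (-0.06) for miR-181d.

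When miR-565 replicate 1 was left out, 2 members differed, both for miR-181d (0.509% of all genes). NEK2 gave 0.12, 0.10 and 0.01 with miR-181d and -0.20 to -0.05 on the 11 other arrays, a difference of 0.20 ± 0.04 (SE, adjusted p = 0.037). UBE2C, the ubiquitin carrier that starts the degradation of cyclin B, gave 0.03, 0.08 and 0.00 with miR-181d and -0.22 to -0.04 on the 11 others, a difference of 0.17 ± 0.03 (adjusted p = 0.034). With that array left out, the miR-181d arrays are alone on slide 1, so that slide and miRNA cannot be told apart for these differences. Both differences were smaller than 0.25 on the log2 scale. The miR-181d arrays did not overlap the others for either gene, but these are the genes the test had called. The share of all genes without such overlap was not counted, so the lack of overlap adds no support. For miR-574-3p (5.72% of all genes), miR-766 (0.13%), miR-629* (0.27%) and miR-565 (0.213%) the test called 0 of 47 members without that array, and 6, 8, 8 and 8 members had an unadjusted p below 0.05 (20.6%, 8.11%, 12.8% and 6.09% of all genes). With the slide as a random block and without that array, 0, 6, 6 and 1 members were called for these miRNAs and 11 for miR-181d. The shares of all genes called under that block were 7.3%, 3.95%, 12.3%, 0.587% and 14.7%. The slide correlation in this fit was negative (-0.20). The counts under the block therefore do not show which calls hold once a slide effect is taken out.

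The slides allow some comparisons within a slide. On slide 2, the 2 miR-565 and 2 miR-574-3p arrays differed by -0.01 in the median of the members and by 0.03 in CENPE. On slide 3, miR-574-3p replicate 3 and the 3 miR-629* arrays differed by 0.02 and by -0.01. On slide 1, the 3 miR-181d arrays lay 0.35 above miR-565 replicate 1 in the median of the members and 3.45 above it in CENPE. The 3 miR-766 arrays were alone on slide 4, where slide and miRNA cannot be told apart.

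The separate channels show in which cells a gene was high or low. In the overexpressing channel, each miRNA was compared with the other 4 after quantile normalization. The test (limma) called 0 of 47 members for miR-766 (0.296% of all genes), and likewise for miR-574-3p, miR-181d, miR-565 and miR-629* (0% of all genes for each). At an unadjusted p below 0.05 there was 1 member for miR-766 (4.63% of all genes), 7 for miR-565 (17.8%) and 0 for miR-574-3p (3.46%), miR-181d (4.16%) and miR-629* (2.11%). In the knocked-down channel it called 1 member for miR-574-3p (8.63% of all genes), 1 for miR-766 (3.72%), and 0 for miR-629* (0.852%), miR-565 (2%) and miR-181d (1.33%), where 4, 10 and 9 members had an unadjusted p below 0.05 (13.2%, 16.3% and 21.1% of all genes).

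The 2 members called were AURKB and CDC25B. The knocked-down signals of AURKB on the miR-574-3p arrays were 888, 957 and 920, and its normalized level was 0.16 ± 0.03 (SE) log2 units below the mean of the other miRNAs (adjusted p = 0.013). The ratio of AURKB for miR-574-3p did not differ from that of the other miRNAs (0.06 ± 0.08, adjusted p = 0.91). CDC25B, the phosphatase that starts CDK1 activation, had knocked-down signals of 7373, 8266 and 8504 on the miR-766 arrays, 0.21 ± 0.04 below the others (adjusted p = 0.016). The miR-766 arrays were alone on their slide, so slide and miRNA cannot be told apart for CDC25B. Both calls held without miR-565 replicate 1, when 7.47% of all genes were called for miR-574-3p and 3% for miR-766. No member was called for miR-574-3p without its replicate 2 or 3, or for miR-766 without its replicate 3. CENPE was called in neither channel for any miRNA, and its shift in the knocked-down channel ranged from -0.08 for miR-766 to 0.03 for miR-574-3p.

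By the methods, an mRNA counted as suppressed where its ratio was below 0.5, its p no higher than 0.001 and its intensity in knocked-down cells 20 or more. With the unadjusted p of limma in place of the authors' p, 0 of the 47 members met this for any of the 5 miRNAs. For miR-565 the mean ratios of CENPF, ASPM and CENPE were below 0.5, and these genes missed the rule on p. The mirror rule, a ratio above 2 with an overexpressing signal of at least 20, is not from the methods and was met by 0 members too. The share of all genes that met either rule was not counted, so these counts do not set the members apart.

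Other genes of the same machinery were read from lists of 33 kinetochore genes (29 on the array and tested), 17 genes of cohesin and condensin (15) and 15 of the anaphase-promoting complex (15). With all arrays, 3 of the 29 kinetochore genes were called for miR-629*, near the share of all genes (10.4%), and 0 for each of the others. Those 3 were higher: CENPP (0.17), NSL1 (0.28) and SGOL1 (0.32), which guards centromeric cohesion. In the cohesin and condensin list NCAPD3, a condensin subunit, was higher for miR-766 (0.33), miR-629* (0.15) and miR-565 (0.14). In the anaphase-promoting complex list UBE2S, the enzyme that extends its ubiquitin chains, was lower for miR-574-3p (-0.18), miR-766 (-0.37) and miR-629* (-0.26). ANAPC10 was higher for miR-629* (0.35) and miR-565 (0.27), CDC26 was higher for miR-629* (0.23), and ANAPC7 was lower for miR-565 (-0.22). No gene of the 3 lists differed between 1 miRNA and the others with all arrays. Without miR-565 replicate 1, CENPN (-0.21), 1 of the 29 kinetochore genes, and CDC23 (-0.22), 1 of 15 in its list, were lower for miR-574-3p. Of all genes, 5.72% were called in that comparison. Outside mitosis, KRT8 was lower for all 5 miRNAs (-0.46 to -0.30), CD3E passed for none, and the remaining epithelial markers for none.

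Promoter sequence was read for the members, which were chosen as genes of G2 and M phase. RefSeq promoters (GRCh38.p14, 250 bases before to 50 after the start) were matched for 40 of the 48 listed genes. Genes of G2 and M phase are known for 2 promoter elements, the CHR, searched here as TTTGAA, and the CCAAT box, both on either strand. TTTGAA stood in 29 of 40 members (72.5%) and in 18.2% of 27305 genes. CCAAT stood in 33 of 40 (82.5%) and in 39.7%, and both together in 25 of 40 (62.5%) and in 7.26%. TTTGAA was as frequent in the 22 members with a mean log2 ratio above zero on the 14 arrays (72.7%) as in the 17 below zero (70.6%). A match of letters describes the sequence and is not a measured site. Frequent matches among the members go with the choice of genes and are not a result of these arrays.

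The 120 bases before the start are shown for 3 members with a mean above zero over the 14 arrays (HMMR, KIF15 and CENPE). They are also shown for 2 with a mean below zero (PLK1 and KIF4A), of which KIF4A was above zero on 1 array. TTTGAA and CCAAT, or their reverse complements, are in capitals. CENPE held neither set of letters in its whole window.
HMMR (chr5:163460512-163460631, plus strand): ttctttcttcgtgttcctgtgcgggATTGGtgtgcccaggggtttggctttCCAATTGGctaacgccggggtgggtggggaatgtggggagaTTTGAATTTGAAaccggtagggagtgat
KIF15 (chr3:44761674-44761793, plus strand): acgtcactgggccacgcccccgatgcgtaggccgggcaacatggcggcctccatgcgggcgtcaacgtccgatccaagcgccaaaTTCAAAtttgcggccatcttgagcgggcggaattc
CENPE (chr4:103198344-103198463, minus strand): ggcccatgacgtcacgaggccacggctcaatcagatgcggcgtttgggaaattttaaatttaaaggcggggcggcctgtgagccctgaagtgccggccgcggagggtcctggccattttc
PLK1 (chr16:23678769-23678888, plus strand): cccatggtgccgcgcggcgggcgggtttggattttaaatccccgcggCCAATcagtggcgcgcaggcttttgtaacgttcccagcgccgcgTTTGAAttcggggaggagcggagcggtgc
KIF4A (chrX:70289984-70290103, plus strand): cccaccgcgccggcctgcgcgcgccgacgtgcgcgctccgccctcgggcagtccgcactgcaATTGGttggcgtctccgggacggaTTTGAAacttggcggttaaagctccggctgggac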

How the data were processed

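Total RNA of A549 cells, overexpressing and knocked-down, was hybridised together on each of 15 whole genome arrays with 2 colours, and the authors extracted the spots with Feature Extraction 9.5.3.1 (9.5.3 in the submitters' processing notes), with probe positions on hg18. The deposited intensity columns are processed signals, background-subtracted and dye-normalized by the authors. The deposited log10 ratios, in the array files and in the series table, equal each other. The deposited error score of the log10 ratio weighted 1 alternative, and deposited 0 or 1 marks gave outlier spots and spots well above background. The authors' p-values were not used.

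Here log2(Cy5/Cy3) was formed, 1639 control spots per array and 2296 outlier spots in all were left out, and spots of a probe were averaged. Of 41000 probes, 31357 were tested, which were those well above background in 1 channel or the other on 3 arrays or more. R 4.3.3 and limma 3.58.1 (lmFit, eBayes with intensity trend) were used with 1 coefficient per miRNA over 15 arrays, and p-values were adjusted by Benjamini-Hochberg over tested probes. A gene was read from its brightest probe. The fit was tested on simulated data. The number of arrays limits the precision. Named genes are CENPE, the 3 highest and 3 lowest members of each comparison, all called members (or the 10 with the smallest p), the brightest and dimmest of each role, and called genes of other lists. Members and lists were chosen with earlier results of these data known. Alternatives covered signal processing, centring, filters, variance model, slide, replicate number and each array left out.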

Additional observations from a re-analysis of the deposited data

Results flagged for a closer look

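With miR-565 replicate 1 left out, NEK2 and UBE2C differed between miR-181d and the mean of the other 4 miRNAs, by 0.202 and 0.17 on the log2 scale (adjusted p = 0.037 and 0.034, limma). Of 47 members 2 were called, against 0.509% of all genes tested. With all 15 arrays neither gene was called. The miR-181d arrays are alone on their slide once that array is left out, so that slide and miRNA cannot be told apart.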

How the results depend on the processing

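The number of members called depended on 1 array. Without miR-565 replicate 1 it rose from 1 to 17 for miR-574-3p, from 1 to 20 for miR-766, from 3 to 24 for miR-629*, from 6 to 18 for miR-565 and from 1 to 24 for miR-181d. Adding the slide as a block (chosen after seeing the data) gave 23, 27, 36, 25 and 33. Leaving out arrays, these included, gave 0 to 23, 0 to 27, 0 to 36, 1 to 25 and 0 to 33 called members in this order. Leaving out miR-565 replicate 2 or 3 gave 24 and 13 for miR-565. With any other single array left out the count was 0 or 1 for miR-574-3p, miR-766 and miR-181d, 0 to 3 for miR-629* and 1 to 3 for miR-565. The members' median log2 ratio was -0.003 to 0.014, 0.031 to 0.065, 0.003 to 0.029 (0.024 without miR-629* replicate 2), -0.18 to -0.029 and 0.039 to 0.052. Members differing from the other miRNAs were 0, 0 to 6, 0 to 6, 0 to 1 and 0 to 11. In the overexpressing channel 0, 0 to 11, 0 to 9, 0 and 0 to 16 members were called, and in the knocked-down channel 0 to 2, 0 to 15, 0 to 4, 0 to 1 and 0 to 11. The share of all genes called rose as well without miR-565 replicate 1, from 5.51% to 23.2% for miR-574-3p. For most other settings of this section that share was not counted, so their counts are not a result about the members.

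The CENPE log2 ratio ranged over left-out arrays from 0.093 to 0.117, 0.127 to 0.168, 0.121 to 0.152, -1.598 to 0.124 and 0.127 to 0.164, and its difference from the other miRNAs from -0.033 to 0.399, 0.016 to 0.446, 0.007 to 0.437, -1.73 to -0.007 and 0.016 to 0.447. The difference for miR-574-3p turned to -0.032 and the ratio for miR-565 to 0.124 without miR-565 replicate 1, and to -0.033 and 0.119 with the slide block as well. With the slide as a block and all arrays, the CENPE ratio turned to -0.745 for miR-574-3p and -0.503 for miR-629*, its difference to -0.808 and -0.505, and that of miR-181d rose to 2.295. The members' median was then -0.068, -0.108 and 0.197 for miR-574-3p, miR-629* and miR-181d. No member was called for the first 4 miRNAs and 3 for miR-181d, 25 members differed for miR-181d, 20 were called in its overexpressing channel, and 3, 16, 4, 2 and 14 in the knocked-down channels. The shares of all genes called under this block with all arrays were not counted. The slide correlation was 0.73 with miR-565 replicate 1 and -0.20 without it.

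Called members that moved under other settings are given in the same order of miRNAs. Normexp with loess gave 5 for miR-629* and 3 for miR-181d, with medians of 0.022 for miR-766 and -0.003 for miR-629*. Median centring gave 0, 0, 10 for miR-565 and 2 for miR-181d, with a median of -0.009 for miR-629*. The series table gave 3, 2 and 5, and 2 for miR-181d. A fit without intensity trend gave 0, 0, 0, 1 and 0. No filter gave 0 and 0, and 2 each for miR-565 and miR-181d. The mean of a gene's probes gave 0, 0 and 3 for miR-565, and 2 each in the knocked-down channel of miR-766 and miR-565. Each miRNA alone gave 19, 3, 15, 0 and 8, and the error-weighted mean 0, 0, 1, 10 and 0. Scaling to the 75th percentile gave 3 and 1 in the knocked-down channel of miR-766 and miR-565. The shares of all genes called under these settings were not counted, and the cause of these moves was not tested.

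Replicate numbers did not pair the arrays, with correlations of -0.395 to 0.511 (median 0.057) over 30 same-numbered pairs. With the replicate number as a block 0 members were called for miR-574-3p and miR-766, and 1 in the knocked-down channel of miR-565. The CENPE ratio stayed at 0.105 for miR-574-3p. Dye and treatment cannot be told apart, and signals of dim probes such as INCENP limit the precision.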
